A study of Homo sapiens with 12 samples.

Results

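The genes described here are CD82 and the 6 other tetraspanins CD9, CD63, CD81, CD151, CD37 and CD53, chosen by symbol from a table of 24641 gene symbols. Of these 7 genes, 6 had a row and all 6 passed the filter on low counts, which left 15648 genes. CD53 was not analysed here. CD82 was picked because it was much lower with the RIPOR3 hairpin in normoxia. For the 7 genes the values of that comparison, and of the interaction that contains it, are therefore a description with no p. Counts of calls that include these genes there are also given, and nothing is read from those counts. The oxygen comparisons of these genes use the same normoxia libraries, so their p-values are not independent of that choice. The cells were MDA-MB-231, an established human line from a triple-negative breast cancer, and all of them carried a hairpin, either a control hairpin (shControl) or 1 hairpin against RIPOR3 (shRIPOR3). Each was kept in normoxia or in hypoxia (1% O2 with 5% CO2, at 37 °C for 24 h), in the same medium with 10% serum. This gave 4 groups of 3 libraries of stranded mRNA, 12 in all. With 1 hairpin, an effect of RIPOR3 loss and an effect of that hairpin on other transcripts cannot be told apart. Nothing in the labels ties a library to a culture of its own, and the p-values below then rest on a spread between libraries that may be technical.

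Tetraspanins are small proteins that cross the membrane several times and gather integrins, growth factor receptors, proteases and one another into membrane microdomains. They act in adhesion, migration, endocytic sorting and the release of extracellular vesicles, and CD9, CD63 and CD81 are the usual markers of such vesicles. CD82, also called KAI1, is known as a metastasis suppressor that is often low in advanced carcinomas, CD151 binds the laminin-binding integrins, and CD37 and CD53 are tetraspanins of leukocytes. Protein levels were not measured in these libraries.

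The libraries held between 14750734 and 52526813 counts, and every normoxia library (at most 30032858) was shallower than every hypoxia library (at least 31781324). Levels are given as CPM, the count divided by the TMM-scaled library total and multiplied by 1e+06. RIPOR3 itself had 7, 3 and 7 counts in normoxia shControl, 0, 0 and 1 in normoxia shRIPOR3, 33, 18 and 30 in hypoxia shControl and 9, 3 and 11 in hypoxia shRIPOR3, so its libraries follow their labels at a very low level. The line's own markers VIM, CD44 and EGFR together had 1040 to 1910 CPM per library, and the luminal markers ESR1, PGR and CDH1 had 1.31 to 2.26 CPM. Of 12 leukocyte markers, 7 had a row, with a summed level of 0.727 to 2.31 CPM over the 12 libraries.

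CD82 had 224, 122 and 255 counts in normoxia shControl and 336, 291 and 279 in hypoxia shControl, which are 8.86, 8.56 and 9.16 CPM and 8.18, 8.76 and 7.78 CPM. With shRIPOR3 it had 25, 24 and 34 counts in normoxia and 70, 52 and 72 in hypoxia, or 1.65, 1.1 and 1.19 CPM and 1.3, 1.41 and 1.32 CPM. In hypoxia the shRIPOR3 libraries all lay below the shControl libraries, where the groups did not overlap for 66.0% of all genes. The same order in normoxia is a description, since CD82 was chosen there. In hypoxia, the comparison that did not choose the gene, CD82 fell from 8.24 ± 0.493 to 1.34 ± 0.0586 CPM (SD, n = 3 each), a log2 fold change of -2.62 ± 0.102 (SE; 95% interval -2.83 to -2.41, adjusted p = 2.65e-16, edgeR's quasi-likelihood test with Benjamini-Hochberg adjustment). That is 16.3% of the control level, or 6.15-fold lower, and CD82 was the 34th most lowered of the 15648 genes. In RNA from whole cultures, fewer cells that express CD82 and less CD82 mRNA per cell cannot be told apart. In normoxia, where the gene was chosen, the level was 8.86 ± 0.302 CPM with shControl and 1.31 ± 0.297 CPM with shRIPOR3. The 2 fold changes differed by 0.19 ± 0.189 on the log2 scale (SE; interval -0.21 to 0.58), in an interaction term that passed the threshold for 23.2% of all genes.

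Oxygen did not detectably move CD82. Both oxygen comparisons use the normoxia libraries in which CD82 was chosen, so their values and p-values are not independent of that choice. The log2 change from normoxia to hypoxia was -0.11 ± 0.0852 in shControl cells (SE; interval -0.29 to 0.06, adjusted p = 0.257, edgeR) and 0.07 ± 0.169 in shRIPOR3 cells (interval -0.28 to 0.42, adjusted p = 0.752), and the oxygen groups overlapped in both. The wider interval in shRIPOR3 cells goes with the 24 to 34 counts per normoxia library, and a hypoxia effect within that interval was not detectable at this depth.

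CD82 lies on chromosome 11 at 44564427 to 44620363 of GRCh38 (GENCODE 29), on the plus strand, where the annotated overlapping antisense genes had no row in the table. Promoter sequences were at hand for 4 of the 7 genes, and those of CD82 and CD63 are printed because they belong to the member that moved most and to the most abundant one. Each is the 250 bases before the RefSeq start in GRCh38.p14, 5′ to 3′ on the gene's strand, at chr11:44565413-44565662 on the plus strand for CD82 and chr12:55728707-55728956 on the minus strand for CD63. Capitals mark the GC box GGGCGG or its reverse complement CCGCCC, the letters bound by Sp1-type factors.
CD82: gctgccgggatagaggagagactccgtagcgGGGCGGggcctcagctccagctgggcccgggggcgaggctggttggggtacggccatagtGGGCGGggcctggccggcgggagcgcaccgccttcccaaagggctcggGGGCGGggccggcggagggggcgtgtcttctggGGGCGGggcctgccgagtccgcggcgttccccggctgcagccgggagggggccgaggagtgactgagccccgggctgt
CD63: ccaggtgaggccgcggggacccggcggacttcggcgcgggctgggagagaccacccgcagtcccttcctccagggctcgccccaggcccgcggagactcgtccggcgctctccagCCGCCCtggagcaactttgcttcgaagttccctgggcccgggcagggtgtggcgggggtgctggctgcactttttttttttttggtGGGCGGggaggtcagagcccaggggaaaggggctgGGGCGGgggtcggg
The RefSeq table used held 8 starts for CD63 and 1 for CD82, and the CD63 window shown is that of the start nearest to the principal start in GENCODE 29, at 56 bases from it. The CD82 promoter had 77.2% G and C and 4 GC boxes, and this CD63 promoter 71.2% and 3. Among 35116 promoters of the same length the median was 58.0% G and C, 42.6% held at least 1 GC box on either strand and 7.63% held at least 4. The core of the hypoxia response element, ACGTG or GCGTG on either strand, occurred 1 time in CD82, against 43.2% of all promoters with at least 1. It was absent from the CD63 window shown, and the windows of the other CD63 starts held 0 to 2. The AP-1 motif TGAGTCA or TGACTCA was not in the CD82 window and was in 4.2% of all. The letters TATAAA were not in it either and were in 10.7%.

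**Figure D1:**
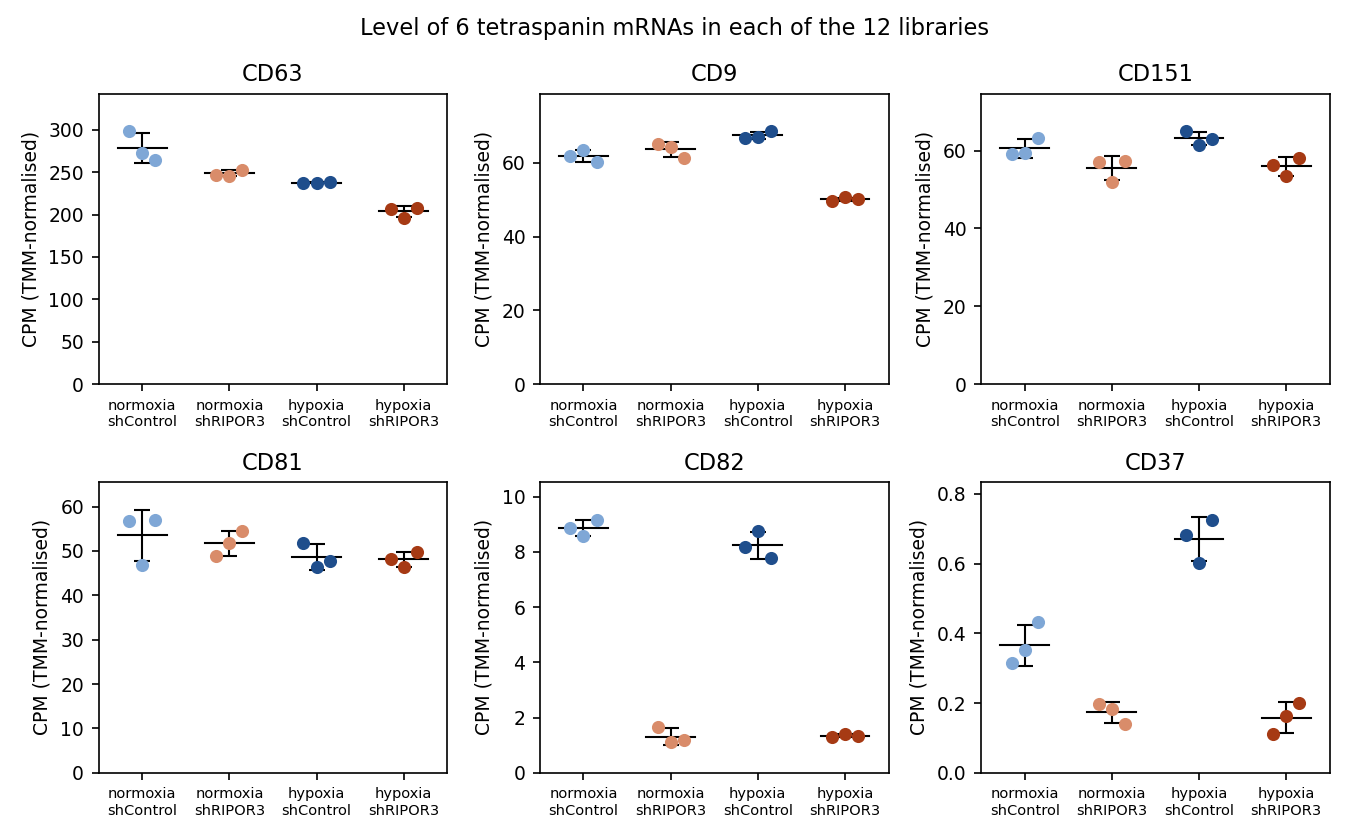
Levels of CD63, CD9, CD151, CD81, CD82 and CD37 in the 12 libraries, in TMM-scaled CPM on axes that start at 0, with 1 panel per gene and 1 position per group; points are libraries, the line and bars are the mean and SD of 3. CD82 lies at 7.78 to 9.16 CPM in the shControl libraries and at 1.1 to 1.65 CPM in the shRIPOR3 libraries, while CD81 overlaps across all 4 groups.

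Among the vesicle tetraspanins, CD63, a protein of late endosomes and lysosomes, was the most abundant. It had 298, 273 and 264 CPM in normoxia shControl, 247, 246 and 253 in normoxia shRIPOR3, 237, 237 and 238 in hypoxia shControl and 207, 196 and 208 in hypoxia shRIPOR3. The hypoxia libraries were below the normoxia libraries with either hairpin, and CD63 fell in hypoxia by 0.23 ± 0.041 on the log2 scale in shControl cells (SE, adjusted p = 2.78e-05, edgeR) and by 0.29 ± 0.041 in shRIPOR3 cells (adjusted p = 1.79e-06). With shRIPOR3 in hypoxia it fell by 0.22 ± 0.0405 (adjusted p = 4.48e-05), to 85.8% of the control. With library totals as the scaling the 2 hypoxia effects were -0.12 and -0.17, still past the threshold. CD63 shares 237 exon bases with AC009779.2, which had 2815 counts in all against 91041 for CD63.

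CD9, which acts in cell adhesion, migration and gamete fusion, had a hypoxia effect of opposite sign with the 2 hairpins. Its levels were 61.9, 63.5 and 60.2 CPM in normoxia shControl and 66.7, 67.1 and 68.5 in hypoxia shControl. In shRIPOR3 cells they were 65.1, 64.4 and 61.4 in normoxia and 49.7, 50.6 and 50.1 in hypoxia. The 3 hypoxia shRIPOR3 libraries were the lowest of the 12, and the 3 hypoxia shControl libraries were the highest. CD9 rose in hypoxia in shControl cells by 0.13 ± 0.0382 (log2, SE; interval 0.05 to 0.21, adjusted p = 0.00531, edgeR) and fell in shRIPOR3 cells by 0.34 ± 0.0383 (interval of the change -0.42 to -0.26, adjusted p = 4.73e-08). The rise in shControl cells was lost without normoxia shControl replicate 3 (0.10, adjusted p = 0.0532), and with library totals as the scaling the effects were 0.24 and -0.22, both past the threshold. The difference of the 2 effects was -0.47 ± 0.0541 (SE; interval -0.58 to -0.36), given with no p since it contains the comparison that chose the genes. Each of the 2 effects uses normoxia libraries of that comparison, so their p-values are not independent of the choice. With shRIPOR3 in hypoxia CD9 fell by 0.43 ± 0.0363 (adjusted p = 3.36e-10), to 74.3% of the control, while in normoxia the value was 0.04 ± 0.0401 and the groups overlapped.

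CD81, a vesicle marker and a part of the B-cell coreceptor, had the smallest hairpin difference of the 6 genes in hypoxia. It had 56.7, 46.8 and 57.0 CPM in normoxia shControl, 48.9, 51.9 and 54.5 in normoxia shRIPOR3, 51.9, 46.4 and 47.7 in hypoxia shControl and 48.3, 46.4 and 49.7 in hypoxia shRIPOR3. The groups overlapped in every comparison. The shRIPOR3 difference in hypoxia was -0.01 ± 0.0554 (log2, SE; interval -0.13 to 0.10, adjusted p = 0.833, edgeR). CD81 passed the threshold for a fall of 0.15 ± 0.0588 in hypoxia in shControl cells (adjusted p = 0.0277), a call that did not hold without normoxia shControl replicate 1 (adjusted p = 0.136) or 3 (0.168), without hypoxia shControl replicate 2 (0.116) or 3 (0.0706), or with library totals as the scaling (0.561). In shRIPOR3 cells the value was -0.11 ± 0.0582 (adjusted p = 0.114), which passed without normoxia shControl replicate 2 (adjusted p = 0.0478).

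CD151, which holds laminin-binding integrins in stable complexes, had 59.1, 59.3 and 63.3 CPM in normoxia shControl, 57.1, 51.9 and 57.3 in normoxia shRIPOR3, 64.9, 61.5 and 63 in hypoxia shControl and 56.3, 53.4 and 58.0 in hypoxia shRIPOR3. The shRIPOR3 libraries were below the shControl libraries at either oxygen level, by a small margin. In hypoxia CD151 fell by 0.17 ± 0.043 (log2, SE, adjusted p = 0.00116, edgeR), to 88.6% of the control. Its hypoxia effect was 0.06 ± 0.0456 in shControl cells (adjusted p = 0.277) and 0.02 ± 0.0458 in shRIPOR3 cells (adjusted p = 0.795). With library totals as the scaling both passed the threshold, at 0.17 (adjusted p = 0.00319) and 0.14 (0.0162).

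CD37, the leukocyte tetraspanin with a row, was close to the limit of detection. Its counts were 8, 5 and 12 in normoxia shControl, 3, 4 and 4 in normoxia shRIPOR3, 28, 20 and 26 in hypoxia shControl and 6, 6 and 11 in hypoxia shRIPOR3. The 3 hypoxia shControl libraries were the highest, at 0.602 to 0.725 CPM, and the other 9 lay between 0.111 and 0.431 CPM. With shRIPOR3 in hypoxia CD37 fell from 0.67 ± 0.0624 to 0.158 ± 0.045 CPM (SD, n = 3), a log2 change of -2.06 ± 0.29 (SE; interval -2.66 to -1.46, adjusted p = 1.31e-06, edgeR), or 4.17-fold. It rose in hypoxia in shControl cells by 0.85 ± 0.296 (interval 0.24 to 1.46, adjusted p = 0.0148), a call lost in DESeq2 (adjusted p = 0.0882) and without normoxia shControl replicate 1 (0.72, adjusted p = 0.0813). In shRIPOR3 cells the value was -0.08 ± 0.464 (interval -1.04 to 0.88, adjusted p = 0.905). From the summed counts, the exact 95% Poisson intervals of the level were 0.549 to 0.878 CPM in hypoxia shControl and 0.104 to 0.247 CPM in hypoxia shRIPOR3, and they cover counting error only. CD37 shares 12 exon bases with TEAD2 on the opposite strand, a gene with 1947 counts in all against 133 for CD37, and TEAD2 fell with shRIPOR3 in hypoxia by 0.83 ± 0.0945 (adjusted p = 4.45e-08). It also shares 87 exon bases with AC011450.1, which had 54 counts. Whether the counting used strand is not given in the sources used here, and the part of these overlaps in the CD37 value was not tested. The summed leukocyte markers were 1.81 to 2.05 CPM in hypoxia shControl and 1.27 to 1.43 CPM in hypoxia shRIPOR3. With CORO1A left out, their sum was 0.186 to 1.12 CPM over the 12 libraries. Of these markers CD79B and CD3E had 0 counts in hypoxia shRIPOR3, and CD3E and ITGAM had 0 in normoxia shControl. CD79B had 1 count in all in hypoxia shControl. The part of the leukocyte markers in the CD37 value was not tested.

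Counted together, the 6 genes with a row had 0 higher and 5 lower calls with shRIPOR3 in hypoxia, where 61.9% of all genes passed the threshold, 30.7% as higher and 31.2% as lower. Their libraries did not overlap between the hairpins for 5 of the 6 (66.0% of all genes). CD82 and CD37 were past a 2-fold fall, as were 4.91% of all genes. In hypoxia against normoxia the 6 had 2 higher and 2 lower calls in shControl cells, where 64.8% of all genes were called (32.4% higher and 32.4% lower), and 3 of the 6 did not overlap between the oxygen levels (67.2% of all genes). In shRIPOR3 cells there were 0 higher and 2 lower calls, where 55.6% of all genes were called (25.2% higher and 30.4% lower), and 2 of the 6 did not overlap (61.2%). With library totals as the scaling these splits were 3 higher and 1 lower, and 1 higher and 2 lower. In normoxia 0 of the 6 were higher (25.1% of all genes) and 4 were lower with shRIPOR3 past the threshold (20.6% of all genes lower, 45.7% called), 2 of them by more than 2-fold (2.54%), and 4 did not overlap (51.8%). Nothing is read from these normoxia counts, since CD82 was chosen there. The median log2 change of the 6 was -0.32 with shRIPOR3 in hypoxia, -0.03 for hypoxia in shControl cells and -0.10 for hypoxia in shRIPOR3 cells, against -0.003, 0.016 and -0.013 for all genes.

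**Figure D2:**
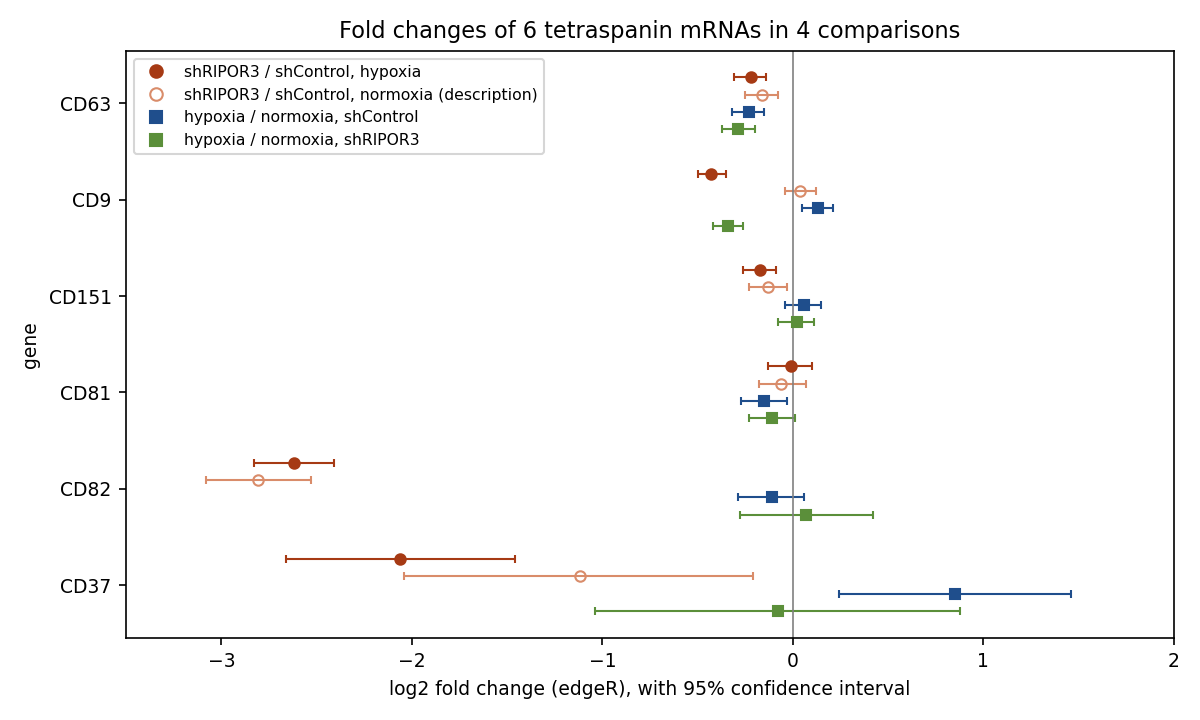
Log2 fold changes of the 6 tetraspanins with 95% intervals in 4 comparisons; filled symbols are tested comparisons, hollow symbols are shRIPOR3 against shControl in normoxia, given as a description. CD82 lies at -2.62 and -2.81 for the hairpin and near 0 for oxygen, and the CD9 hypoxia effects lie on opposite sides of 0, at 0.13 and -0.34.

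Levels of different genes were compared per kilobase of merged exons. CD63 was first in every group, at 106, 94.5, 90.2 and 77.3 CPM per kilobase in normoxia shControl, normoxia shRIPOR3, hypoxia shControl and hypoxia shRIPOR3. CD151 and CD9 followed, at 15.4 and 14.8 in normoxia shControl and 16.0 and 16.2 in hypoxia shControl, with libraries that overlapped. In shRIPOR3 cells their libraries did not overlap, with CD9 ahead in normoxia (15.3 against 14.1) and CD151 ahead in hypoxia (14.2 against 12). CD81 came next at 6.51 to 7.23 in the 4 groups, then CD82 and then CD37, with no overlap between these neighbours. With the median length of the coding transcripts in place of merged exons, CD151 ranked 2nd, CD81 3rd and CD9 4th in all 4 groups, so the place of CD9 depends on the length used. CD82 had 2.19 and 2.03 CPM per kilobase in shControl cells and 0.324 and 0.331 in shRIPOR3 cells, in normoxia and hypoxia in turn. Its rank among the 28 tetraspanins with a row was 12th and 11th with shControl and 19th at both oxygen levels with shRIPOR3. As a share of the summed length-scaled level of those 28, CD82 made up 1.17 ± 0.0716% in hypoxia shControl and 0.222 ± 0.0155% in hypoxia shRIPOR3 (SD, n = 3), and CD63 made up 51.9 ± 0.188% and 51.8 ± 0.503%.

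The rest of the family was listed as 26 further tetraspanins, of which 22 had a row and 16 were tested. TSPAN10, TSPAN11, TSPAN18, TSPAN19, TSPAN32 and PRPH2 were too low to test. With shRIPOR3 in hypoxia 4 of the 16 rose and 6 fell, with a median of 0.06 on the log2 scale (62.5% called, against 61.9% of all genes). In normoxia 2 rose and 4 fell, with a median of 0.10 (37.5% called, against 45.7%). These shares are near or below those of all genes. None of the 16 was past a 2-fold change with the hairpin at either oxygen level. In hypoxia CD82 and CD37 were thus the tetraspanins of the 22 tested that were more than 2-fold lower. The same comparison is not drawn in normoxia, since CD82 was chosen there. TSPAN1, TSPAN4, TSPAN17 and TSPAN31 are named here after their values were seen.

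TSPAN5, TSPAN15, TSPAN14, TSPAN17 and TSPAN33 belong to the subgroup that escorts the sheddase ADAM10 to the cell surface, and they did not move as one with the hairpin. TSPAN5 averaged 41.4 CPM in normoxia shControl, 27.7 in normoxia shRIPOR3, 41.1 in hypoxia shControl and 26.2 in hypoxia shRIPOR3. It fell with shRIPOR3 by 0.65 in hypoxia (log2, adjusted p = 2.38e-11, edgeR) and by 0.57 in normoxia (adjusted p = 7.55e-09), with hypoxia effects of 0.00 and -0.08 that did not pass the threshold. TSPAN15 fell by 0.54 (adjusted p = 7.67e-08) and by 0.52 (2.09e-06) with the hairpin, and by 0.31 (0.00018) and 0.33 (0.000347) in hypoxia with shControl and shRIPOR3. TSPAN33 moved the other way with the hairpin, up by 0.45 in hypoxia (adjusted p = 0.00483) and by 0.40 in normoxia (0.0189), and fell in hypoxia by 0.86 in shControl cells (1.44e-05) and by 0.80 in shRIPOR3 cells (6.22e-06). The hairpin calls of TSPAN33 were lost in hypoxia without hypoxia shControl replicate 1 (0.34, adjusted p = 0.0517) and in normoxia in DESeq2 (adjusted p = 0.0564), without normoxia shControl replicate 1 (0.30, 0.113) or without normoxia shRIPOR3 replicate 2 (0.30, 0.114). TSPAN14 rose in hypoxia by 0.21 (adjusted p = 0.000117) and by 0.20 (0.000167) with the 2 hairpins, and its hairpin values of 0.05 and 0.06 did not pass. TSPAN17 was lower by 0.11 with shRIPOR3 in hypoxia (adjusted p = 0.0303), a call lost when any 1 of the 6 hypoxia libraries was left out.

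Outside that subgroup, TSPAN9 fell with shRIPOR3 by 0.55 in hypoxia (adjusted p = 1.68e-07, edgeR) and by 0.40 in normoxia (0.000305), and TSPAN3 by 0.23 (1.75e-05) and 0.21 (0.000293). TSPAN12, a coreceptor in Norrin signalling, rose by 0.28 with the hairpin in hypoxia (adjusted p = 0.00451) and fell by 0.46 (0.000107) and 0.33 (0.00213) in hypoxia against normoxia. The hairpin call of TSPAN12 was lost with thinned counts (0.19, adjusted p = 0.204). TSPAN6 fell in hypoxia by 0.44 in shControl cells (adjusted p = 2.18e-08) and by 0.23 in shRIPOR3 cells (0.000173), and the 2 effects differed by 0.21 ± 0.0667 (SE, adjusted p = 0.0276). That difference was lost without normoxia shControl replicate 1 (adjusted p = 0.0533), normoxia shRIPOR3 replicate 3 (0.0575) or hypoxia shRIPOR3 replicate 3 (0.0907), and with library totals as the scaling the TSPAN6 effect in shRIPOR3 cells was -0.11 (adjusted p = 0.0595). ROM1, a photoreceptor disc protein, averaged 0.961 and 1.47 CPM in shControl cells and 1.53 and 1.03 CPM in shRIPOR3 cells, in normoxia and hypoxia in turn. Its hypoxia effects of 0.54 (adjusted p = 0.044) and -0.53 (0.0436) had opposite signs and differed by -1.07 ± 0.317 (adjusted p = 0.0165), and that difference was lost without normoxia shRIPOR3 replicate 2 (-0.86, adjusted p = 0.0788) or hypoxia shControl replicate 3 (-0.82, adjusted p = 0.0614). Each of the 2 ROM1 hypoxia calls was lost in DESeq2 (adjusted p = 0.0772 and 0.0788), with the lowest values at 0.34 (0.234) without hypoxia shControl replicate 3 and -0.32 (0.304) without normoxia shRIPOR3 replicate 2. ROM1 shares 25 exon bases with EML3, which had 6938 counts in all. TSPAN1 rose with the hairpin by 0.46 in hypoxia (adjusted p = 0.0146) and 0.54 in normoxia (0.023). The first was lost without hypoxia shControl replicate 2 (0.0518) or hypoxia shRIPOR3 replicate 1 (0.0628), and the second without normoxia shControl replicate 3 (0.0839) or normoxia shRIPOR3 replicate 1 (0.133). TSPAN4, known from migrasomes, rose in hypoxia by 0.29 (0.00281) and 0.30 (0.00217). TSPAN31 shares 1078 exon bases with CDK4, which had 131466 counts in all, so its value is uncertain.

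Over the 22 tested tetraspanins, hypoxia gave 5 higher and 7 lower calls in shControl cells (54.5% called, against 64.8% of all genes), and 2 higher and 8 lower in shRIPOR3 cells (45.5%, against 55.6%). With library totals as the scaling, which shifts the median of all genes by 0.11 and 0.123 on the log2 scale, these splits were 8 higher and 5 lower, and 4 higher and 5 lower. With the 6 chosen genes included, the hairpin gave 4 higher and 11 lower calls in hypoxia (68.2% called, against 61.9% of all genes), and 2 higher and 8 lower in normoxia (45.5%, against 45.7%). Nothing is read from the normoxia count, since CD82 was chosen there.

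**Figure D3:**
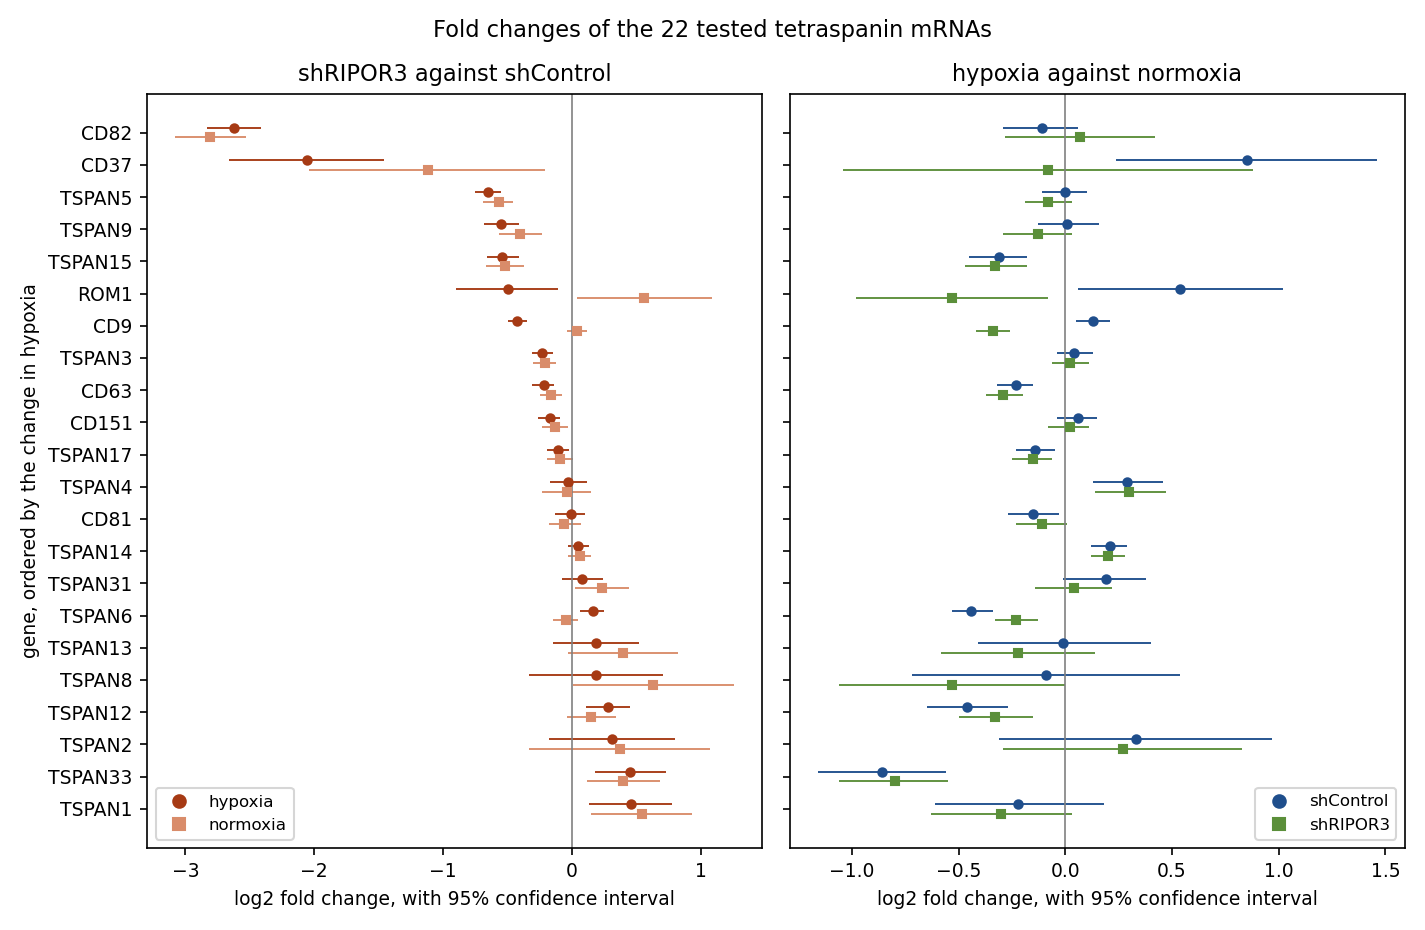
Log2 fold changes of the 22 tested tetraspanins, ordered by their change with shRIPOR3 in hypoxia; the left panel shows shRIPOR3 against shControl at each oxygen level and the right panel hypoxia against normoxia with each hairpin. CD82 at -2.62 and CD37 at -2.06 stand below the other 20, of which the next is TSPAN5 at -0.65.

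Proteins that tetraspanins bind or carry were taken as a list of 22, of which 20 were tested. With shRIPOR3, 2 rose and 13 fell in hypoxia, where 30.7% of all genes rose and 31.2% fell, and 3 rose and 10 fell in normoxia, where 25.1% of all genes rose and 20.6% fell. The median log2 change of the partners was -0.29 and -0.10, against -0.003 and 0.033 for all genes. In hypoxia against normoxia 13 rose and 3 fell in shControl cells, and 8 rose and 5 fell in shRIPOR3 cells, splits that became 14 to 1 and 12 to 3 with library totals as the scaling. That is 80.0% and 65.0% called, against 64.8% and 55.6% of all genes. The chains of laminin-binding integrins did not move as one with the hairpin: ITGA3, ITGB4 and ITGA7 fell, and ITGA6, the partner chain of ITGB4, did not. ITGA6, named after its values were seen, averaged 404 and 457 CPM in shControl cells and 455 and 478 CPM in shRIPOR3 cells, in normoxia and hypoxia in turn. It rose with the hairpin by 0.17 in normoxia (log2, adjusted p = 0.000589, edgeR), and its value in hypoxia was 0.07 (0.125), which passed in DESeq2 (0.08, 0.0327) and without hypoxia shControl replicate 2 (0.09, 0.0497). ITGA3 averaged 427 and 465 CPM in shControl cells and 230 and 271 CPM in shRIPOR3 cells, in normoxia and hypoxia in turn, and fell by 0.89 in normoxia (log2, adjusted p = 7.4e-15, edgeR) and by 0.78 in hypoxia (1.6e-14). ITGB4 averaged 2.41 and 6.71 CPM in shControl cells and 1.51 and 1.9 CPM in shRIPOR3 cells. It fell with the hairpin by 1.82 in hypoxia (adjusted p = 9.47e-14) and by 0.67 in normoxia (0.00144), and rose in hypoxia by 1.47 in shControl cells (3.36e-11), with 0.32 in shRIPOR3 cells (0.0874). ITGA7, at 0.125 to 0.818 CPM, fell by 1.40 in hypoxia (adjusted p = 3.55e-05) and by 1.63 in normoxia (0.00879). The normoxia call was lost without normoxia shControl replicate 1 (-1.31, adjusted p = 0.079), without normoxia shRIPOR3 replicate 3 (-1.49, 0.051) and with thinned counts (-1.17, 0.132).

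Among the other partners, CD46, a complement regulator, fell with shRIPOR3 by 0.82 in hypoxia (adjusted p = 8.4e-15, edgeR) and by 0.48 in normoxia (5.42e-09). HBEGF, the growth factor precursor that CD9 associates with, fell by 0.72 (4.97e-14) and 0.60 (2.08e-11). EGFR, whose endocytosis CD82 is known to modulate, rose in hypoxia by 1.57 in shControl cells (adjusted p = 1.33e-20) and by 1.00 in shRIPOR3 cells (2.22e-16). With the hairpin EGFR fell by 0.60 in hypoxia (5.36e-13), from 619 to 408 CPM, and its value in normoxia was -0.02 (0.667), at 208 and 205 CPM. The difference of the 2 EGFR hypoxia effects was -0.58 ± 0.052 (SE, adjusted p = 2.72e-08). IGSF3 rose in hypoxia by 1.00 in shControl cells (7.72e-11), and the membrane protease MMP14 rose by 0.66 (1.64e-13) and 0.53 (1.91e-11) with the 2 hairpins.

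Genes of vesicle formation and release were a list of 17, all tested. With shRIPOR3, 2 rose and 10 fell in hypoxia (70.6% called, against 61.9% of all genes), and 1 rose and 8 fell in normoxia (52.9%, against 45.7%). In hypoxia against normoxia 4 rose and 9 fell in shControl cells, and 3 rose and 10 fell in shRIPOR3 cells, splits that became 6 to 5 and 4 to 6 with library totals. In either, 76.5% were called, against 64.8% and 55.6% of all genes. The syndecan and syntenin genes, which load cargo into endosomal vesicles, were lower with the hairpin in hypoxia: SDC4 by 0.47 (log2, adjusted p = 1.12e-10, edgeR), SDCBP by 0.44 (1.2e-10) and SDC1 by 0.33 (2.87e-08). TSG101 of the ESCRT machinery fell by 0.37 (2.64e-08). The order of the syndecan and syntenin genes differed in normoxia. There SDC1 averaged 80.3 CPM with shControl and 49.8 CPM with shRIPOR3, SDC4 71.1 and 52.0 CPM, and SDCBP 114 and 104 CPM. SMPD3, a neutral sphingomyelinase, rose with the hairpin in hypoxia by 0.73 (0.000688) and rose in hypoxia by 1.13 in shControl cells (0.000713) and by 1.29 in shRIPOR3 cells (1.66e-05). With thinned counts SMPD3 missed the threshold for the hairpin (0.69, adjusted p = 0.0617) and for hypoxia in shControl cells (0.90, 0.0565). FLOT1 fell in hypoxia by 0.65 (2.51e-12) and 0.46 (2.76e-09).

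Factors known to control CD82 transcription or turnover were a list of 11, all tested. With shRIPOR3 in hypoxia 5 rose and 3 fell, a count of 8 (72.7%, against 61.9% of all genes) that dropped to 5 with all libraries thinned to the smallest total. In normoxia 3 rose and 1 fell, and that count of 4 (36.4%, against 45.7% of all genes) dropped to 2 without normoxia shControl replicate 3 and to 2 without normoxia shRIPOR3 replicate 2. In hypoxia against normoxia 5 rose and 4 fell with either hairpin, splits that became 6 to 4 in shControl cells and 5 to 2 in shRIPOR3 cells with library totals. In either, 81.8% were called, against 64.8% and 55.6% of all genes. BCL3, an NF-kappaB cofactor, averaged 2.03 and 1.67 CPM in shControl cells and 0.604 and 0.589 CPM in shRIPOR3 cells, in normoxia and hypoxia in turn. It fell with the hairpin by 1.49 ± 0.171 in hypoxia (log2, SE, adjusted p = 5.4e-08, edgeR) and by 1.79 ± 0.218 in normoxia (3.44e-07). RUVBL1 and RUVBL2, the pontin and reptin ATPases, rose with the hairpin in hypoxia by 0.38 (6.6e-09) and 0.37 (1.3e-07), and NFKB1 rose by 0.34 (9.59e-05). JUN fell by 0.22 with the hairpin in hypoxia (1.62e-05), and rose in hypoxia by 1.08 in shControl cells (2.77e-17) and by 0.75 in shRIPOR3 cells (5.41e-14). FOS rose in hypoxia by 1.10 in shControl cells (3.89e-06), with 0.17 in shRIPOR3 cells (0.39).

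**Figure D4:**
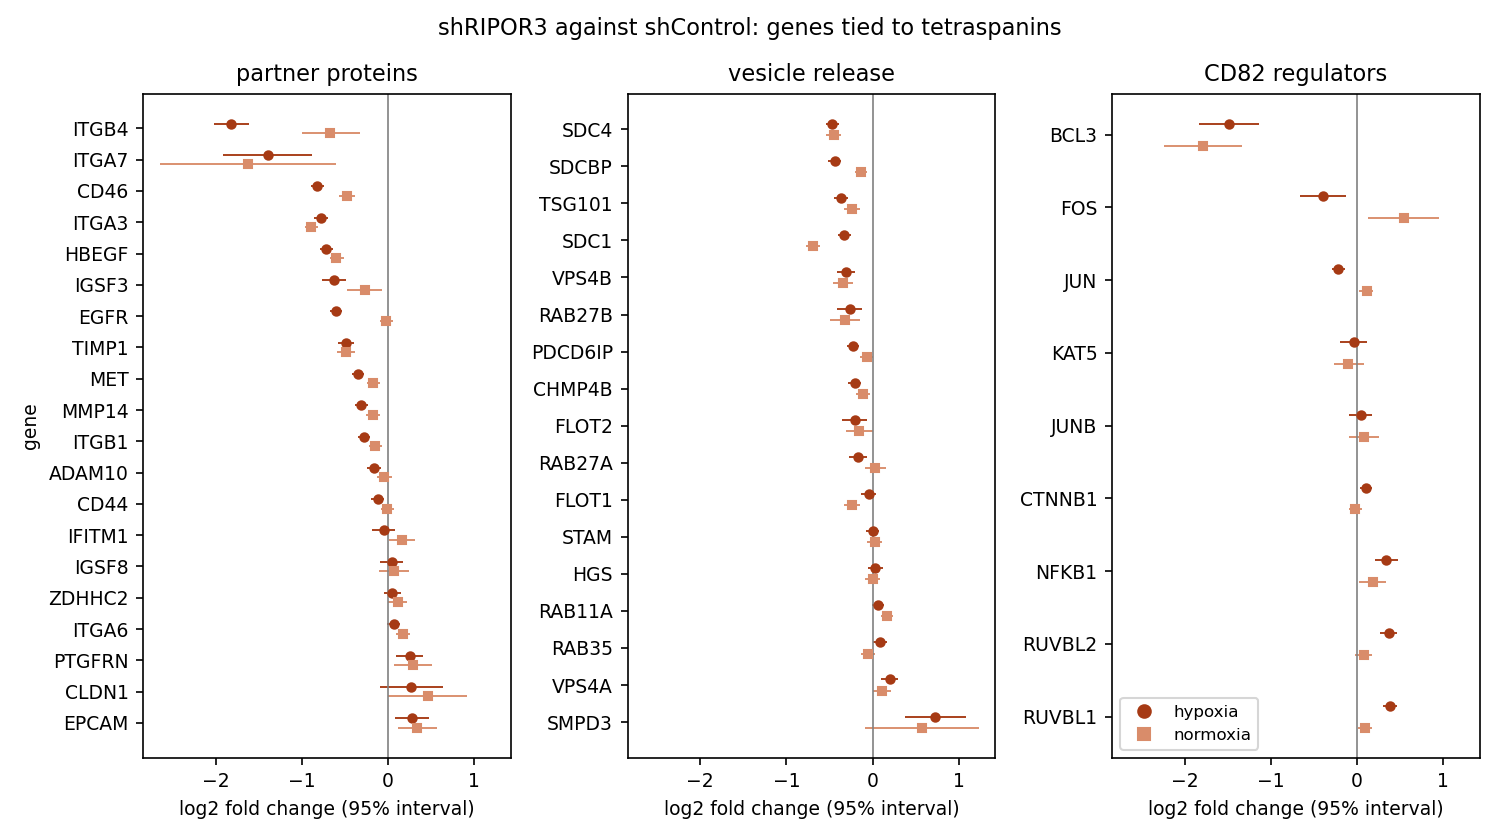
Log2 fold changes of partners, vesicle release genes and CD82 regulators with shRIPOR3 against shControl, in hypoxia and in normoxia, with 1 row per gene shown. ITGB4 (-1.82 in hypoxia), ITGA7 (-1.40) and BCL3 (-1.49) lie farthest to the left, and SMPD3 (0.73) lies farthest to the right in hypoxia.

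Among the 5 genes whose levels followed CD82 most closely over the 12 libraries were MYO1F and PRSS2 (Pearson r = 0.994 each), DNM1 (0.991) and NOX5 (0.989), out of 1424 genes eligible by level and spread. These correlations rest on the step between the 6 shControl and the 6 shRIPOR3 libraries and are given with no p. PRSS2 belongs to a family of near-identical genes, so its value is uncertain. MYO1F, an unconventional myosin, averaged 5.32 and 5.19 CPM in shControl cells and 1.51 and 1.49 CPM in shRIPOR3 cells. DNM1, the large GTPase dynamin of endocytosis, averaged 28.4 and 26.6 CPM against 5.16 and 5.43 CPM. The log2 change of MYO1F with shRIPOR3 in hypoxia was -1.82 and that of DNM1 was -2.27. Within the family and its linked genes r with CD82 was 0.98 for TSPAN5, 0.96 for TSPAN9, 0.96 for ITGA3, 0.88 for CD37, 0.82 for CD151, 0.57 for CD9, 0.57 for CD63 and 0.12 for CD81, and 0.99 for BCL3.

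Along chromosome 11, the 5 nearest genes with a tested value on each side of CD82 were compared in the same way. TP53I11, the nearest on the far side at 266 kb, averaged 12.4 CPM in both shControl groups and 6.16 and 6.02 CPM in the shRIPOR3 groups, in normoxia and hypoxia in turn. It fell with the hairpin by 1.06 ± 0.0918 in hypoxia (log2, SE, adjusted p = 5.19e-10, edgeR) and by 1.06 in normoxia (4.5e-08). TSPAN18 overlaps it on the opposite strand by 74 exon bases and had 18 counts in all, against 3500 for TP53I11. SLC35C1 at 1180 kb fell by 0.39 in hypoxia (adjusted p = 1.43e-05) and ACCS at 480 kb by 0.43 (0.0108), a call lost without hypoxia shControl replicate 3 (0.0501) or hypoxia shRIPOR3 replicate 3 (0.057). ALKBH3 at 644 kb rose by 0.24 (1.62e-05), CRY2 at 1230 kb by 0.24 (0.0108) and PRDM11 at 475 kb by 0.12 (0.0368), a call lost without hypoxia shControl replicate 1 (0.104) or 3 (0.0705) and without hypoxia shRIPOR3 replicate 1 (0.162) or 3 (0.0753). ALKBH3 overlaps its antisense gene ALKBH3-AS1, so their reads cannot be told apart if strand was not used. The other 4 did not pass the threshold, and none of the 10 was lower by as much as CD82. In the same comparison 61.9% of all genes passed, 31.2% as lower and 30.7% as higher. CD151 and CD81 lie on the same chromosome at 832843 to 839831 and 2376177 to 2397419, CD9 and CD63 on chromosome 12 at 6199715 to 6238271 and 55725323 to 55729707, and CD37 on chromosome 19 at 49335171 to 49343335.

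**Figure D5:**
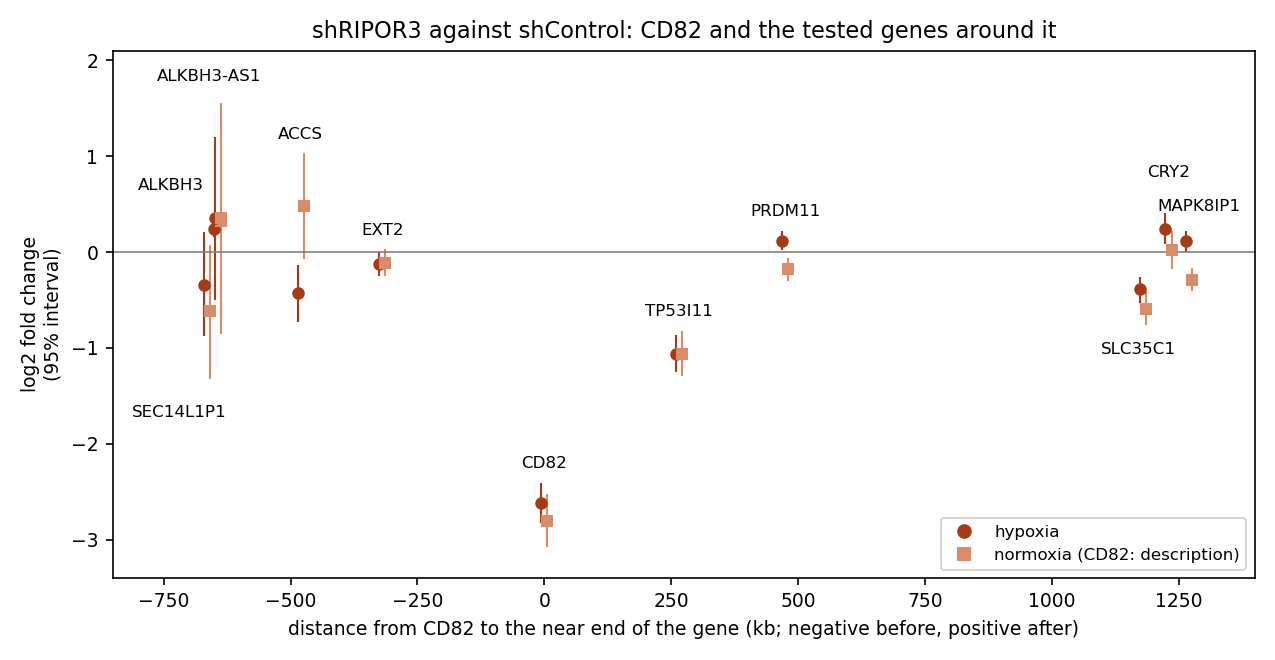
Log2 fold change with shRIPOR3 against shControl in hypoxia and normoxia of CD82 and the 5 nearest tested genes on each side, against the distance from CD82 in kb (negative before its start). CD82 at 0 kb lies at -2.62 in hypoxia, TP53I11 at 266 kb lies at -1.06, and the other 9 neighbours lie between -0.43 and 0.35 in hypoxia.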

How the data were processed

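The data were 12 mRNA libraries of MDA-MB-231 cells in 4 groups of 3. The authors deposited 1 table of raw read counts per gene symbol. Per the submitters' processing notes the tools included fastp 0.23.4, STAR 2.5.3a and featureCounts, with the genome GRCh38. For the annotation and the strand setting of the counting, nothing is given in the sources used here. Of the symbols, 24 were spreadsheet dates (0.2% of the counts) and 2 were duplicates.

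All 12 libraries entered 1 model of the counts (edgeR 4.0.16 in R 4.3.3), with filterByExpr, TMM scaling (factors 0.9517 to 1.048), 1 coefficient per group and quasi-likelihood F-tests. Adjusted p-values are Benjamini-Hochberg values over 15648 genes, with a threshold of 0.05. Exact tests of 3 libraries against 3 cannot go below 0.1, so the fit across all genes was used. The steps were run on simulated counts with changes planted in the hypoxia libraries of both hairpins alike. No hairpin effect or interaction was planted. Replicates of a group differed by more than sampling noise (chi-square per degree of freedom 2.65 to 6.18). The coefficient of variation that edgeR terms biological was 3.74%, and this spread between libraries may be technical. Depth differs between the oxygen levels, so counts were also thinned to 14750734 per library.

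The members and all gene lists were chosen with earlier results of these data known. Named genes were all members and, from each other list, called genes with an absolute log2 change of at least 1 and up to 4 called genes with the smallest p per comparison. Genes like CD82 were the 5 with the highest Pearson r of log2 CPM, among genes with at least 5 CPM in 1 group and group means that span at least 1 log2 unit. Alternatives were other scalings, DESeq2 1.42.0, other filters, a replicate block, fits of the compared groups alone, thinning and leaving out each library. Library totals as the scaling were added after seeing the data. Same-numbered replicates did not deviate together (18 pairs, r -0.127 to 0.131). Some genes that these rules select are not reported here.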

Additional observations from a re-analysis of the deposited data

Results flagged for a closer look

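These genes are listed because their hypoxia effect differed between the 2 hairpins, by a test of the difference itself. CD9 was listed by that same test, but its p is not given and nothing is read from its call. Values are the hypoxia effect in shRIPOR3 cells minus that in shControl cells, in log2 units with the SE and edgeR's adjusted p. Of all genes tested, 23.2% passed this test.

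Among the tetraspanins the difference was -0.47 ± 0.0541 for CD9 (with no p, since it contains the comparison that chose the genes), 0.21 ± 0.0667 for TSPAN6 (adjusted p = 0.0276) and -1.07 ± 0.317 for ROM1 (0.0165).

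Among the partners it was -1.15 ± 0.194 for ITGB4 (0.000131), -0.58 ± 0.052 for EGFR (2.72e-08), -0.36 ± 0.119 for IGSF3 (0.0301), -0.34 ± 0.0593 for CD46 (0.000163) and -0.18 ± 0.0498 for MET (0.0105). ITGB4, EGFR, IGSF3 and CD46 each had a rise in hypoxia in shControl cells and a smaller positive value in shRIPOR3 cells.

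Among the vesicle genes it was -0.31 ± 0.052 for SDCBP (0.000124), -0.16 ± 0.0512 for PDCD6IP (0.0269), 0.37 ± 0.0539 for SDC1 (2.73e-05) and 0.2 ± 0.0607 for FLOT1 (0.0207).

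Among the CD82 regulators it was -0.93 ± 0.236 for FOS (0.00548), -0.32 ± 0.0535 for JUN (0.000113), 0.29 ± 0.0543 for RUVBL1 (0.000379) and 0.29 ± 0.063 for RUVBL2 (0.00156).

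Among the neighbours of CD82 it was -0.91 ± 0.303 for ACCS (0.0308), 0.3 ± 0.0773 for PRDM11 (0.00587) and 0.4 ± 0.078 for MAPK8IP1 (0.000607).

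Leaving out 1 library ended some of these calls. For ITGB4, EGFR, CD46, SDCBP, SDC1, JUN, FOS, RUVBL1, RUVBL2, PRDM11 and MAPK8IP1 no single library did so. For the others listed here apart from CD9 at least 1 library did, and the values with the highest adjusted p follow for those other than TSPAN6 and ROM1. For IGSF3 the value moved to -0.29 without normoxia shRIPOR3 replicate 2 (adjusted p = 0.125), for PDCD6IP to -0.11 without hypoxia shControl replicate 2 (0.17), for MET to -0.14 without hypoxia shControl replicate 2 (0.0641), for FLOT1 to 0.16 without normoxia shControl replicate 3 (0.0812) and for ACCS to -0.58 without normoxia shControl replicate 3 (0.217).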

How the results depend on the processing

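CD82 with shRIPOR3 in hypoxia kept its call in every alternative, at -2.65 to -2.57 with 1 library left out and -2.63 to -2.39 otherwise. The count of tetraspanins called, of 22, ranged with 1 library left out over 8 to 13 for hypoxia in shControl cells, 9 to 11 for hypoxia in shRIPOR3 cells, 12 to 15 for shRIPOR3 in hypoxia, 7 to 11 for shRIPOR3 in normoxia and 2 to 3 for the interaction. Of 943 values of single tetraspanins under the other alternatives, 903 counted as unchanged, 31 lost and 9 gained a call, and 0 reversed. Unchanged means the same call, and a change of sign with no call in either fit was allowed. For the chosen genes in normoxia and in the interaction it means a move of no more than the SE. With library totals as the scaling, chosen after seeing the data, the share of all calls that were higher went from 50.0% to 61.6% for hypoxia in shControl cells and from 45.3% to 63.4% in shRIPOR3 cells. There 2 vesicle genes reversed, STAM in shControl cells (0.01) and RAB35 in shRIPOR3 cells (0.01), because that scaling moves all genes up. With the replicate block the counts of tetraspanins called were 11, 9, 15, 10 and 3 in the same order, and CD82 stayed at -2.62 with shRIPOR3 in hypoxia. The labels do not say that a replicate number marks a shared day or batch. CD37 left the table with a filter of 1 CPM in 3 libraries. Low counts limit CD37, ROM1, TSPAN1 and RIPOR3.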
